A study of Mus musculus with 56 samples.

Results

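Keratins are the intermediate filament proteins of epithelial cells, and the 52 keratin genes measured here were followed across 3 tissues of control mice and of mice given chrysene. Members were all genes with a symbol of Krt, a number and at most 1 letter, named through the RefSeq accession of each array probe; keratin-associated proteins and 1 pseudogene were left out. The reference table held 53 such genes, of which 1, Krt83, was matched by no probe, and the 52 measured genes are a small part of the 20018 genes named on the array. They comprised 28 type I genes, of which 27 lie in the cluster on chromosome 11, and 24 type II genes on chromosome 15, where the remaining type I gene, Krt18, also lies. Of the 52, 41 had 1 probe and 11 had 2, and the brighter probe in a tissue was used.

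Adult male MutaTMMouse, a transgenic mouse strain used to score mutations, were about 14 weeks old. Controls (D0) were gavaged with the olive oil vehicle every day for 28 days, and exposed mice received chrysene, one of the polycyclic aromatic hydrocarbons, in the same oil. The daily dose was 17.5 mg/kg-bw in D1, 50 mg/kg-bw in D2 and 150 mg/kg-bw in D3. Lung, liver and forestomach were taken 72 h after the last dose, and total RNA of random tissue sections was hybridised to 56 arrays. The D0, D1, D2 and D3 groups had 5, 5, 4 and 5 mice in forestomach and in liver, and 5, 5, 3 and 5 mice in lung. Every value not called a signal is a log2 ratio of the tissue RNA (Cy5) to a universal mouse reference RNA pooled from cell lines (Cy3), so it ranks mice and tissues for 1 probe and cannot be compared between keratins. All groups carry the transgene and received the oil, the dyes were never swapped, and the same mice gave the 3 tissues, except that no lung array of D2 mouse 11 was analysed here.

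Keratin filaments are built from equal parts of a type I (acidic) and a type II (basic) chain, so the genes are expressed in pairs. Krt8 and Krt18 with Krt7, Krt19 and Krt20 are typical of simple epithelia such as hepatocytes, bile ducts, airways and gastric glands. Krt5 and Krt14 mark the basal layer of stratified epithelia, Krt4 and Krt13 the upper layers of wet mucosae, Krt1 and Krt10 the upper layers of cornifying epithelia, and Krt6a, Krt6b, Krt16 and Krt17 skin appendages and stressed epithelium. The mouse forestomach is lined by a cornifying stratified epithelium and borders the glandular stomach, which is lined by a simple one.

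The promoters of the genes whose levels carried the main patterns are shown first, as the 250 bases upstream of an annotated start (RefSeq, GRCm38.p6, 5′ to 3′ on the gene's strand). Such a window was found for 36 of the 52 keratins, with 37 windows in all since Krt13 had a pair. Capitals mark matches on either strand to the TATA box (TATAAA), the GC box (GGGCGG), the AP-1 letters (TGANTCA), the AP-2 letters (GCCNNNGGC) or the xenobiotic response core (TNGCGTG). Krt8 and Krt18 form the simple epithelial pair, and their windows are chr15:102004343-102004592 (minus strand) and chr15:102027966-102028215 (plus strand).
Krt8: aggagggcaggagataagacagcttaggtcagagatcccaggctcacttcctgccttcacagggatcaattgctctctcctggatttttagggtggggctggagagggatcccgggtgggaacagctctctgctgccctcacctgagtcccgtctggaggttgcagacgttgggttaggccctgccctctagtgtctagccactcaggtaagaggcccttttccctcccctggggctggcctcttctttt
Krt18: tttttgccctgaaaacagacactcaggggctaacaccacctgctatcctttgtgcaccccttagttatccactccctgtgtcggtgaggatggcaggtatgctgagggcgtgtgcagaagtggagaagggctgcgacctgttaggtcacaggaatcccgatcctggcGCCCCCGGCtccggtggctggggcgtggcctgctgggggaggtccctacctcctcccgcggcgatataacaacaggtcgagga
Krt5 and Krt14 form the basal pair, and their windows are chr15:101712906-101713155 and chr11:100206031-100206280, both on the minus strand. The Krt14 window lies inside the full gene span (chr11:100203162-100207510), so it does not stand before the outermost start of the gene.
Krt5: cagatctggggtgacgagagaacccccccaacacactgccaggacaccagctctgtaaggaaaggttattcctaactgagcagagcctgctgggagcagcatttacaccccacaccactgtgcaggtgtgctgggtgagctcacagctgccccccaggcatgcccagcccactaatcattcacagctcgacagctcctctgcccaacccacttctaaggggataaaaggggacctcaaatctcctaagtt
Krt14: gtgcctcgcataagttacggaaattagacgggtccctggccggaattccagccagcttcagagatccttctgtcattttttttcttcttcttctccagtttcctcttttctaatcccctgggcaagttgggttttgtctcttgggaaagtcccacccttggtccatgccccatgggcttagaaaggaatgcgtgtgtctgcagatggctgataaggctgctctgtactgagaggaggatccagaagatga
Krt10 (chr11:99389365-99389614) and the second window of Krt13 (chr11:100120578-100120827), both on the minus strand, belong to genes of the upper layers. Both windows likewise lie inside the full gene spans (chr11:99385254-99397449 and chr11:100117327-100121566).
Krt10: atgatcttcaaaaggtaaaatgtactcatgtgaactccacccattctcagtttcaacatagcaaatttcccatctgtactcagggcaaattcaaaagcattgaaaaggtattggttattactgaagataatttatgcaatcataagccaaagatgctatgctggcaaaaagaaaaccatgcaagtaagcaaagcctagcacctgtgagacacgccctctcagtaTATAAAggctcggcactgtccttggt
Krt13: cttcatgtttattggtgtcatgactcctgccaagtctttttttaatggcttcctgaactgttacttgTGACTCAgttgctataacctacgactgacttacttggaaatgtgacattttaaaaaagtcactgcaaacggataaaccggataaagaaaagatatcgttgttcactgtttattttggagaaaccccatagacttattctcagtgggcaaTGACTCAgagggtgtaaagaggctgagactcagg

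Of these letters, the Krt8, Krt5 and Krt14 windows held none, and the Krt18 window held GCCNNNGGC once, 83 bases upstream of the start. The Krt10 window held TATAAA 26 bases upstream, as part of a feature shared by 17 of the 37 keratin windows (45.9%) against 12.4% of all 32841 promoters in the table. GGGCGG was found in 2 keratin windows (5.41%), of Krt7 and Krt75, against 32.7% of all promoters. TGANTCA, the letters bound by AP-1, stood 183 and 34 bases upstream in the Krt13 window shown, and 196 bases upstream in the other Krt13 window. These were the only keratin windows with it (5.41%, against 6.75% of all). GCCNNNGGC was in 5 keratin windows (13.5%, against 13.7% of all), and TNGCGTG, the core bound by the Ah receptor, was in 0 of them against 4.1% of all. These are letter matches and were not tested for function.

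Among the 3 tissues, forestomach had the most keratins above background. A probe passed the filter when it was well above background on at least 3 arrays of a tissue, and this held for 34 keratins in forestomach, 21 in lung and 18 in liver. On every array of the tissue, 17 keratins were well above background in forestomach, 15 in lung and 10 in liver. The filter was passed in all 3 tissues by 16 keratins, among them Krt8, Krt18, Krt19 and Krt23. A further 16, mostly keratins of the hair shaft and its inner root sheath, passed it nowhere, and 9 of these (Krt24, Krt33a, Krt34, Krt39, Krt40, Krt71, Krt75, Krt77 and Krt88) were above background on none of the 56 arrays. By class, all 3 basal keratins (Krt5, Krt14, Krt15) passed the filter in forestomach and lung but only Krt15 in liver, and the 6 simple epithelial keratins passed in forestomach, 5 in lung and 4 in liver. Krt7 was the simple keratin that passed in lung but not in liver, where it was above background on 2 of 19 arrays. Krt20, known from gastric and intestinal epithelium, passed the filter in forestomach alone.

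The share of all spots well above background ranged from 18.9% to 51.7% per array in forestomach, from 34.5% to 46.4% in liver and from 49.0% to 56.7% in lung. Tissues were hybridised on separate slides, so slide and tissue cannot be told apart, while the dose groups were spread over the slides of a tissue. Array column on the slide went with dose group for 50 of the 56 arrays, so those effects cannot be told apart either. The labels fitted their defining genes: hepatocyte markers averaged 6.82 to 7.28 in liver, alveolar type 2 markers 5.40 to 5.87 in lung and stratified epithelium markers 3.49 to 5.86 in forestomach. Forestomach also held glandular stomach markers, and the lungs of mice 17 and 19 held stratified epithelium and skeletal muscle markers, both described with the keratins they moved with. In bulk tissue, fewer cells of a type and less RNA per cell cannot be told apart.

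The first comparison was between tissues of the D0 mice and asked which keratins differ without exposure. Krt1, Krt10, Krt4, Krt13, Krt5 and Krt14, the keratins of stratified epithelium, were far higher in forestomach than in lung or liver, whereas Krt7 was highest in lung. A call needed an adjusted p of at most 0.05 and a change of at least 1.5-fold in limma, with p-values adjusted over all probes tested. Against lung, 21 of the 32 keratins tested were called, 19 higher in forestomach (18% of all probes were) and 2 lower (21.4% of all probes). Against liver, 23 of 31 were called, 20 higher (23.6% of all probes) and 3 lower (23.9%). Of the called keratins, 11 against lung and 12 against liver were above background on no D0 array of 1 of the tissues compared, so they entered the test through the tissue where they were high, and nothing is read from the shares.

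Krt1, the type II keratin of cornifying upper layers, gave log2 ratios of 7.78, 8.63, 7.35, 7.62 and 8.56 in the forestomachs of D0 mice 1 to 5. It was above background on no D0 array of lung or liver. The log2 ratio was higher than in lung by 8.37 ± 0.24 (SE; limma, adjusted p = 1.8e-09) and than in liver by 8.40 ± 0.24 (adjusted p = 1.3e-10). Where a probe was above background on no D0 array of the dimmer tissue, a lower bound was also taken from the Cy5 channel alone after between-array scaling, which for Krt1 was at least 1623-fold over lung and at least 1590-fold over liver. A Cy5 bound leaves out the reference channel, is open to dye bias since no dyes were swapped, and can exceed the fold that the ratio gives. It did so for Krt1, Krt4, Krt5, Krt13, Krt14 and Krt78, among others. It bounds the difference in Cy5 signal and not the fold of the ratio. Tests and adjusted p-values belong to the ratio and not to the Cy5 bounds.

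Krt10, the type I partner of Krt1, was 6.29, 7.29, 6.03, 5.46 and 7.56 in the same forestomachs, and all of these lay above every D0 lung (-0.92 to -0.61). Its mean was 6.53 ± 0.88 (SD, n = 5) in forestomach, -0.77 ± 0.11 in lung and -0.01 ± 0.14 in liver. The log2 difference was 7.29 ± 0.35 (SE) from lung (limma, adjusted p = 5.2e-08) and 6.54 ± 0.35 from liver (adjusted p = 4.0e-08). Its other probe gave 4.68 and 5.36, both called. For Krt13 and Krt78, too, the other probe was called higher in both comparisons, at 6.17 and 5.91 and at 3.79 and 3.88. Krt78, a relative of Krt1 in the upper layers, was 4.43 ± 0.33 above lung (adjusted p = 1.4e-06) and 4.51 ± 0.33 above liver (adjusted p = 5.5e-07) on the log2 scale. Its Cy5 bounds were at least 265-fold and at least 291-fold.

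The mucosal pair was also higher in forestomach. Krt4 had D0 forestomach values of 6.94, 7.56, 4.27, 4.52 and 7.85, with mice 3 and 4 the lowest. Its log2 difference was 6.31 ± 0.67 (SE) from lung (limma, adjusted p = 2.0e-05) and 6.18 ± 0.66 from liver (adjusted p = 1.3e-05), with Cy5 bounds of at least 135-fold and 139-fold. Krt13 was 5.06, 5.65, 4.39, 4.28 and 5.87, higher than lung by 7.32 ± 0.29 (adjusted p = 1.4e-08; Cy5 bound at least 747-fold) and than liver by 6.05 ± 0.29 (adjusted p = 1.6e-08). Krt13 is read here by the probe that was brighter over both tissues compared, which was above background in 1 of 5 D0 livers. Krt76, found in the hard palate, was called higher in both comparisons, by 1.70 ± 0.42 over lung and 1.71 ± 0.42 over liver. It was above background in 0 of 5 D0 arrays of either, with Cy5 bounds of at least 3.17-fold and 3.18-fold.

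All 3 basal keratins were called higher in forestomach in both comparisons (18% of all probes were against lung and 23.6% against liver). Krt5 and Krt14 were above background on no D0 liver. They entered the test against liver through forestomach, and nothing is read from the shares. Krt5 was 2.96, 3.71, 2.90, 3.06 and 3.74 in forestomach, and its log2 difference was 3.11 ± 0.21 from lung (limma, adjusted p = 7.6e-07) and 3.26 ± 0.18 from liver (adjusted p = 5.9e-08). Its other probe gave 1.91 and 1.86, both called. Krt14 was 3.33, 3.99, 3.28, 3.51 and 3.93, which exceeded lung by 4.99 ± 0.16 (adjusted p = 3.2e-09) and liver by 4.53 ± 0.16 (adjusted p = 1.3e-09), with a Cy5 bound over liver of at least 184-fold. Krt15, a keratin of basal and progenitor cells, exceeded lung by 3.96 ± 0.25 (adjusted p = 4.8e-07) and liver by 3.39 ± 0.22 (adjusted p = 2.5e-07). When each array was centred on its median, the calls of Krt5 (0.16 over lung, 0.33 over liver) and Krt14 (2.18 over lung, 2.60 over liver) were lost.

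For these genes the reference channel was not constant. At the Krt5 probe the Cy3 signal lay between 5523 and 16536 on the 19 forestomach arrays, against 60 to 93 on the liver arrays and 45 to 65 on 16 lung arrays. The Cy5 signal at the same probe was 2308 to 127803 in forestomach and 69 to 95 in liver. The log2 ratio of Krt5 gives a smaller difference from liver (3.26) than its Cy5 channel, for which the bound was at least 588-fold. Why the reference channel moved was not tested, nor which reading is nearer to the RNA level. A fit of the Cy5 channel alone called 23 keratins against lung and 24 against liver, with 12 between lung and liver. Of all probes, it called 16.1% higher and 23.3% lower in forestomach against lung, and 23.5% and 24.6% against liver. Lung against liver had 30.4% and 22.4%, and nothing is read from these shares.

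**Figure D1:**
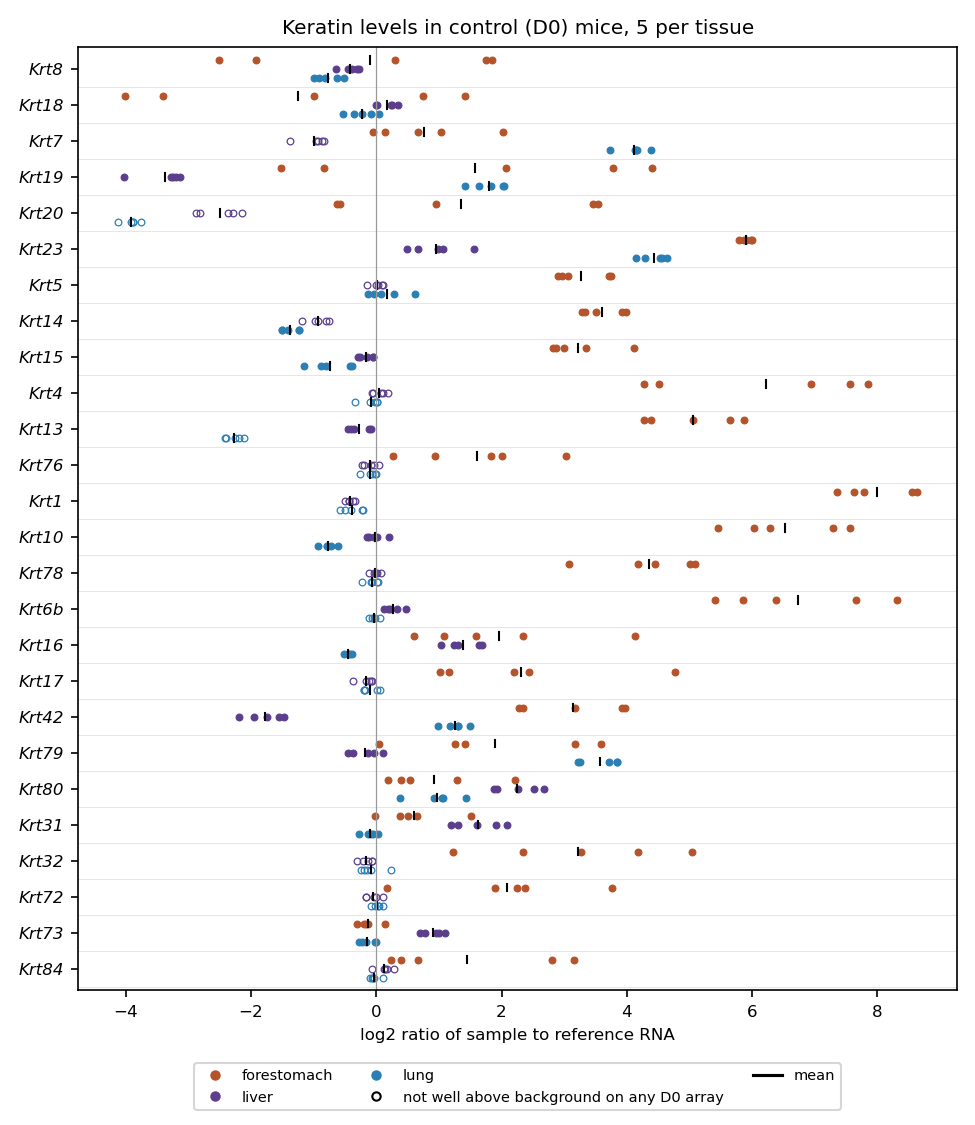
Log2 ratio of tissue to reference RNA (horizontal axis) for 26 keratins in D0 mice, with 1 point per mouse, a line at the mean of 5 mice per tissue, and open symbols where the probe was well above background on no D0 array. Krt1, Krt10, Krt4 and Krt13 stand highest in forestomach and Krt7 in lung (4.11), while Krt8 and Krt18 overlap between tissues; Krt13 and Krt78 use another probe where it was the brighter one in a tissue, and rows cannot be compared with each other.

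Stress and appendage keratins were called higher in forestomach than in lung in 3 of 4 cases (18% of all probes were). Of these, Krt6b and Krt17 entered the test through forestomach, and nothing is read from the share. Krt6b reached 6.72 ± 1.22 (SD, n = 5), higher than lung by 6.76 ± 0.48 (SE; limma, adjusted p = 1.0e-06) and than liver by 6.46 ± 0.48 (adjusted p = 6.7e-07) on the log2 scale. It was above background in 0 of 5 D0 lungs, with a Cy5 bound over lung of at least 78.3-fold. Its other probe gave 2.83 and 2.59, so the 2 probes share the direction and the call but not the size. Its close copy Krt6a was 1.27 ± 1.61 in forestomach and was not called in either comparison (adjusted p = 0.11 and 0.093). Krt16 was called against lung (2.40 ± 0.54, adjusted p = 0.0033) but not against liver (0.57 ± 0.54, adjusted p = 0.39), and Krt17, above background in 0 of 5 D0 lungs, exceeded lung by 2.42 ± 0.59 (adjusted p = 0.0053; Cy5 bound at least 7.38-fold). The files give no probe sequences, so signal shared between near-identical keratins such as Krt6a and Krt6b is uncertain.

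The simple epithelial keratins did not move together between tissues. Krt7 was 4.38, 4.12, 4.14, 4.16 and 3.73 in the D0 lungs and -0.06, 2.02, 0.67, 0.14 and 1.04 in the D0 forestomachs, with no overlap. Its log2 difference of forestomach from lung was -3.34 ± 0.34 (SE; limma, adjusted p = 1.5e-05), and lung exceeded liver by 5.10 ± 0.13 (adjusted p = 1.7e-12). Krt7 was above background in 0 of 5 D0 livers, and the Cy5 bound was at least 34.7-fold. Krt19, the keratin of ducts and airways, was 2.03, 1.42, 1.65, 1.84 and 2.05 in lung and -3.20, -3.13, -3.25, -3.27 and -4.03 in liver, a difference of 5.17 ± 0.17 (adjusted p = 2.5e-11). Forestomach exceeded liver in Krt19 by 4.96 ± 1.04 (adjusted p = 0.0017) and did not differ from lung beyond the spread (-0.21 ± 1.04, adjusted p = 0.88). In Krt20, forestomach exceeded lung by 5.26 ± 0.80 (adjusted p = 0.00028) and liver by 3.84 ± 0.81 (adjusted p = 0.0017), with the probe above background in 3 of 5 D0 forestomachs and in 0 D0 lungs and livers, and Cy5 bounds of at least 27.5-fold and 14.8-fold. Krt20 was -0.63, 3.46, 3.54, -0.58 and 0.95 in the forestomachs of D0 mice 1 to 5, whose glandular stomach markers averaged 1.01, 6.85, 5.81, 0.50 and 5.55. Krt7, Krt19 and Krt42 were also higher in mice 2, 3 and 5, and the part of these markers in the tissue differences was not tested.

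Krt8 and Krt18 were called in no tissue comparison. Lung was lower than liver by small differences, -0.36 ± 0.11 for Krt8 (limma, adjusted p = 0.0077) and -0.40 ± 0.12 for Krt18 (adjusted p = 0.0068), both under the fold limit. The forestomach means, -0.11 ± 2.02 and -1.25 ± 2.42 (SD, n = 5), had so wide a spread that their differences from lung (0.67 ± 0.79 and -1.02 ± 0.94, SE) and liver (0.31 ± 0.78 and -1.41 ± 0.94) were not called (adjusted p of 0.21 to 0.75).

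Krt23, a type I keratin of simple epithelia, had the steadiest forestomach values of the keratins tested there against lung, 5.91 ± 0.08 (SD, n = 5). It stood at 4.44 ± 0.21 in lung and 0.96 ± 0.41 in liver. Forestomach exceeded liver by 4.95 ± 0.18 (limma, adjusted p = 1.4e-09) and lung by 1.47 ± 0.11 (adjusted p = 2.1e-06), but the latter turned to -1.07 when each array was centred on its median. The order of tissues was lung, forestomach and liver for Krt7 and Krt79, with both steps called. For Krt23 and Krt42 it was forestomach, lung and liver on the deposited values, and median centring turned the step from lung to forestomach in both (-1.07 and -0.52).

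Between lung and liver, 12 of 19 keratins were called, 7 higher in lung (28.3% of all probes) and 5 lower (23.4%). The higher ones were Krt7, Krt19, Krt23 (3.48 ± 0.18), Krt79 (3.75 ± 0.15), Krt42 (3.04 ± 0.14), Krt81 and Krt222. Those lower in lung were Krt16 (-1.83 ± 0.12), the hair keratin Krt31 (-1.72 ± 0.16), Krt80 (-1.28 ± 0.20), Krt73 and Krt10. Krt10 (-0.75 ± 0.09) and Krt73 (-1.05 ± 0.09) turned to 0.35 and 0.43 under median centring, and the other Krt10 probe gave 0.68, so no direction is drawn for Krt10 here. Among the keratins called, those lowest in forestomach against liver were Krt80 (-1.33 ± 0.36), Krt73 (-1.04 ± 0.12) and Krt31 (-1.01 ± 0.27), and Krt79 was lower than in lung (-1.68 ± 0.58).

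Median centring moved the median of all probes to -1.18 for forestomach against lung, -0.40 against liver and 0.76 for lung against liver, from -0.03, -0.06 and 0.05. Under it the keratin calls were 9 higher and 5 lower in forestomach against lung (1.19% and 50.2% of all probes) and 5 higher and 0 lower against liver (0.66% and 8.46%). Lung against liver had 7 of 19 higher and 0 lower (57.2% and 8.11% of all probes). Krt1, Krt10 and Krt13 were still called higher in forestomach in both comparisons, at 5.42, 4.46 and 4.49 over lung.

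The genes that anchor keratin filaments to desmosomes and hemidesmosomes, with some factors that regulate keratins, were read beside them as a list of 21 genes. In forestomach 9 were called higher and 3 lower than in lung (18% and 21.4% of all probes), and 16 higher and 2 lower than in liver (23.6% and 23.9%). Lung had 9 higher and 2 lower than liver of 17 tested (28.3% and 23.4%). Some of these were above background on no D0 array of the dimmer tissue. For forestomach they were Dsg3 and Dsc3 against lung, and Dsg1a, Dsg3, Dsc3, Col17a1, Trp63, Grhl3 and Ehf against liver. Between lung and liver they were Jup, Ehf and Dsc2. They entered the test through the tissue where they were high, and nothing is read from the shares. Pkp1, the desmosomal plakophilin of stratified epithelium, was 6.38 ± 0.38 above lung and Dsp, which ties keratins to the desmosome, 3.23 ± 0.39. Grhl3, a factor of barrier formation, was 4.69 ± 0.64 above lung. Pkp2 (-1.61 ± 0.30), Plec (-1.20 ± 0.22) and Itga6 (-1.44 ± 0.33) were below lung. Dsg2, the desmoglein of simple epithelia, had a log2 difference of -2.26 ± 0.47 from liver.

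Within the forestomach, Krt19, Krt18, Krt20 and Krt8 had the 4 largest within-dose SDs among the 34 keratins past the filter (2.26, 2.14, 2.12 and 2.00). The other simple keratins did not share this spread, with 0.67 for Krt7 and 0.34 for Krt23. Krt18 was -4.01, 0.75, 1.43, -3.40 and -0.99 in D0 mice 1 to 5, and -4.46, -3.90, 0.61, -3.81 and -0.43 in D1 mice 6 to 10. In D2 it was 0.35, 1.85, -0.01 and 0.04 in mice 11, 12, 13 and 15, and in D3 -4.48, -4.36, -2.84, 1.03 and -3.98 in mice 16 to 20. The widest gap ran from -2.84 to -0.99 and left 9 mice below it and 10 above, and the D0, D1 and D3 groups held mice of both kinds.

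Krt8 followed the same mice, with -2.50, 1.84, 1.75, -1.91 and 0.29 in D0, -3.41, -3.09, 1.12, -2.29 and 0.76 in D1, 1.34, 2.81, 0.85 and 1.05 in D2, and -3.28, -3.20, -1.54, 2.23 and -3.31 in D3. Described over the mice chosen by Krt18, Krt8 ran from -3.41 to -1.54 in the 9 low mice and from 0.29 to 2.81 in the 10 high ones. Krt19 ran from -1.70 to 0.06 and from 2.08 to 4.81. Krt20 (-3.18 to 0.36 and 0.95 to 4.28), Krt42 (1.93 to 2.52 and 2.90 to 4.27) and Krt7 (-0.33 to 0.62 and 0.67 to 2.02) were also apart, while the ranges of the other 28 keratins past the filter overlapped.

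The 10 glandular stomach markers measured, among them Gkn1, Gkn2, Tff1 and Atp4b, moved with these keratins. Their mean was 0.29 to 2.11 in the 9 low mice and 5.28 to 6.94 in the 10 high mice, and stratified epithelium markers overlapped (3.81 to 5.86 and 3.49 to 5.26). All 10 glandular genes were well above background in each high mouse, and 2 to 8 of them in the low mice. The part of glandular tissue in the simple keratin values was not tested. The high mice were 3 of 5 in D0, 2 of 5 in D1, 4 of 4 in D2 and 1 of 5 in D3.

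**Figure D2:**
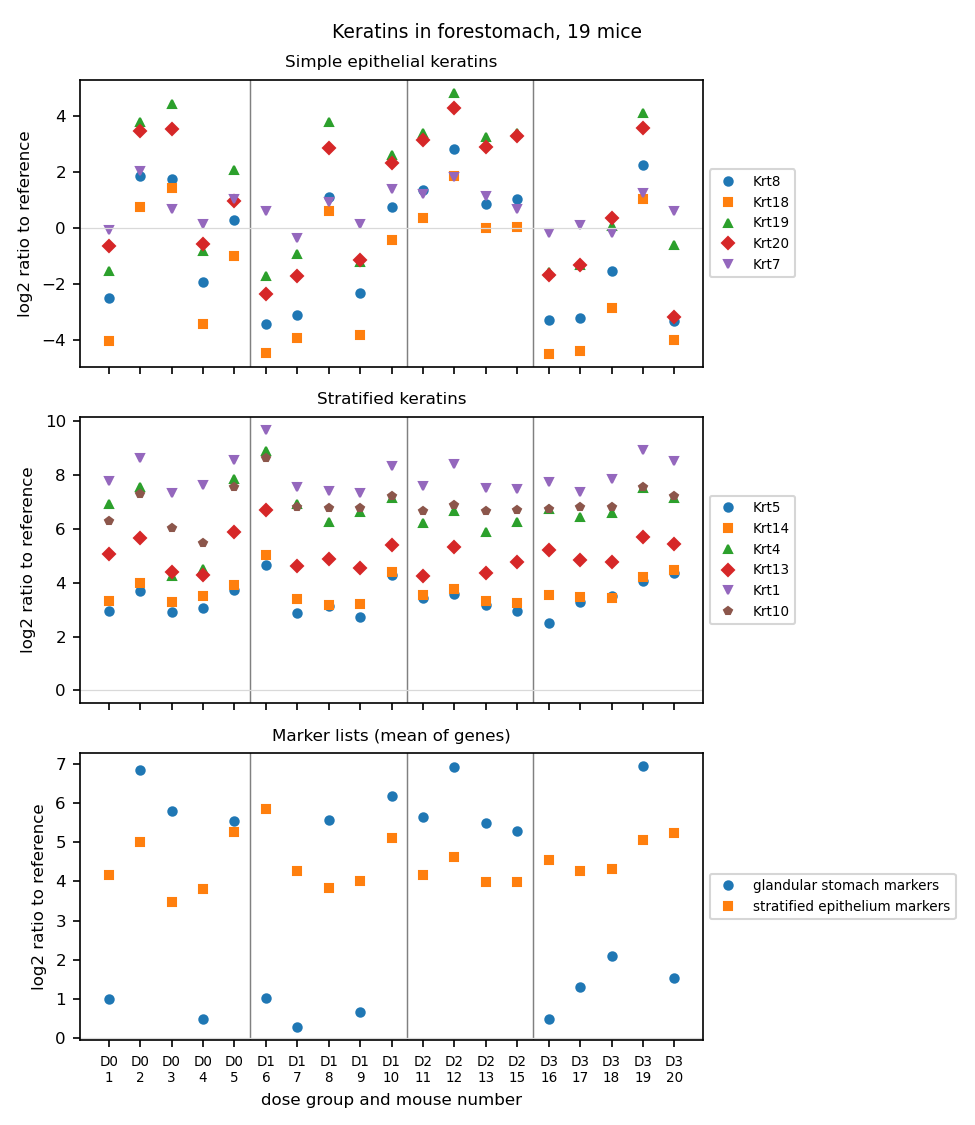
Log2 ratio to reference RNA (vertical axis) in the forestomach of 19 mice, by dose group and mouse number, for simple epithelial keratins, stratified keratins and the mean of 2 marker lists, with 1 symbol per mouse and gene and vertical lines between dose groups. Krt8, Krt18, Krt19 and Krt20 rise and drop with the glandular stomach markers from mouse to mouse, while Krt1 stays between 7.32 and 9.69 in all mice.

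Among the stratified keratins the within-dose SD was 0.64 for Krt5, 0.54 for Krt14, 0.70 for Krt1, 0.64 for Krt10 and 0.66 for Krt13, but 1.06 for Krt4, 1.08 for Krt6b, 1.18 for Krt16, 1.37 for Krt6a and 1.46 for Krt17. Over all 19 mice, Krt5 had a lowest value of 2.51, a median of 3.28 and a highest of 4.68, and Krt14 of 3.17, 3.51 and 5.03. D1 mouse 6 held the highest value of both, and also of Krt1 (9.69), Krt10 (8.64), Krt4 (8.90) and Krt13 (6.71). Its slide, slide 1, had 40.4% to 51.7% of spots above background on 7 arrays, against 18.9% to 34.9% on the other slides. On slide 1 Krt1 was 8.32 to 9.69, against 7.32 to 7.87 elsewhere. Krt5, Krt10, Krt13 and Krt14 were likewise apart by slide, while Krt4 overlapped. The part of slide in these SDs was not tested. The within-dose SD had a median of 0.69 over the 34 forestomach keratins, with 13 above 1, against 0.18 in liver (0 above 1) and 0.24 in lung (4 above 1).

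Partner keratins were then set against each other across mice, in 10 relations adjusted together (Benjamini-Hochberg, two-sided). Mice of different dose groups and slides are pooled in each, and the correlation within slides is given beside it. For liver, lung and the stratified pairs, deviations from dose-group means were used and were permuted within dose groups. In the low and high forestomachs the values were not centred and were permuted across dose groups. These forestomachs were set apart by Krt18, itself in the relation with Krt8, and the p-values do not allow for that choice. Krt8 and Krt18 had r = 0.91 (exact permutation p = 0.00050, adjusted 0.00083; rho = 0.83, p = 0.0083, adjusted 0.014) in the 9 low forestomachs, 0.77 within slides. Without the 2 mice farthest from the median of Krt8 r was 0.68, which no longer passed, so the relation in these 9 rests partly on those mice. In the 10 high forestomachs r was 0.93 (permutation p = 0.00013, adjusted 0.00032; rho = 0.95, p = 1.0e-04, adjusted 0.00040), 0.98 within slides and 0.92 without 2 mice.

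The pair also moved together where it varied little. In liver, with SDs of 0.15 for both genes, r was 0.67 over 19 mice (permutation p = 0.0067, adjusted 0.0096; rho = 0.56, p = 0.019, adjusted 0.027), 0.63 within slides and 0.69 without 2 mice. In lung, over the 16 mice other than 17 and 19, r was 0.87 (permutation p = 0.00039, adjusted 0.00078; rho = 0.84, p = 0.00049, adjusted 0.00098), 0.85 within slides and 0.85 without 2 mice, but 0.57 with Cy5 alone, which no longer passed.

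The 3 stratified pairs behaved alike across the 19 forestomachs. Only partner pairs were computed, so whether partners move together more closely than other stratified keratins was not tested. Krt5 and Krt14 had r = 0.92 (permutation p = 2.0e-05, adjusted 0.00020; rho = 0.89, p = 0.00019, adjusted 0.00047), 0.72 within slides and 0.87 without 2 mice. Krt4 and Krt13 had r = 0.87 (permutation p = 4.0e-05, adjusted 0.00020; rho = 0.87, p = 0.00012, adjusted 0.00040), 0.73 within slides and 0.83 without 2 mice. Krt1 and Krt10 had r = 0.88 (permutation p = 0.00012, adjusted 0.00032; rho = 0.87, p = 1.0e-04, adjusted 0.00040), 0.63 within slides and 0.77 without 2 mice.

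Krt7 and Krt19, which are often named together in ducts, gave no such relation within the sets of mice read. In forestomach the pair was read only inside the low and the high mice, which leaves out the difference between them. Both genes were higher in the high mice (Krt7 0.67 to 2.02 against -0.33 to 0.62, Krt19 2.08 to 4.81 against -1.70 to 0.06). In the 9 low forestomachs r was -0.18 (exact permutation p = 0.66, adjusted 0.66; rho = -0.10, p = 0.81, adjusted 0.84), -0.57 within slides and -0.23 without 2 mice. In the 10 high ones r was 0.20 (permutation p = 0.58, adjusted 0.64; rho = 0.08, p = 0.84, adjusted 0.84), 0.44 within slides and -0.38 without 2 mice. In 16 lungs r was 0.20 (permutation p = 0.55, adjusted 0.64; rho = 0.25, p = 0.43, adjusted 0.53), 0.28 within slides and 0.37 without 2 mice.

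**Figure D3:**
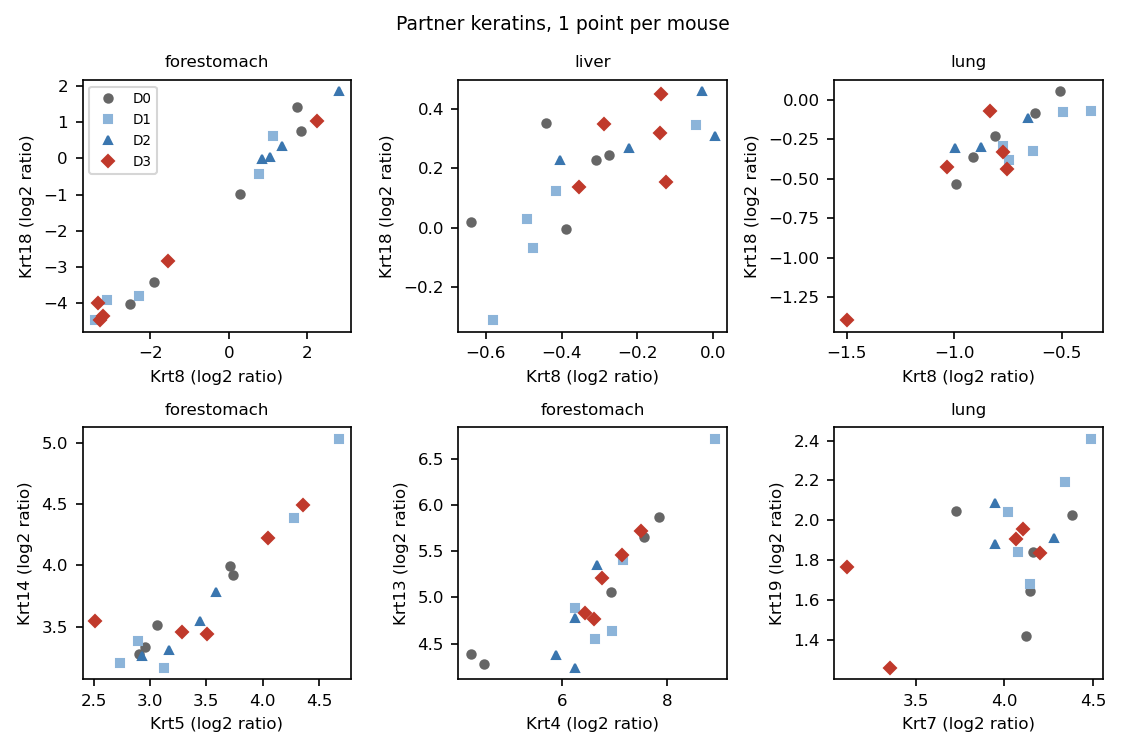
Log2 ratios of a type II keratin (horizontal axes) against its usual type I partner (vertical axes), with 1 point per mouse and symbols by dose group, in forestomach, liver and lung; axis ranges differ between panels. Krt8 and Krt18 lie along a line in all 3 tissues, with a gap between -2.84 and -0.99 of Krt18 in forestomach, and Krt7 and Krt19 in lung do not; the lung panels also show D3 mice 17 and 19.

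The second comparison asked whether keratins responded to chrysene, each dose group against D0 of the same tissue, with the D0 mice shared by the 3 doses. No keratin was called in any of these comparisons. In forestomach 34 keratins were tested and 0 were called at D1 (0% of all probes), D2 (0%) and D3 (0.00726%). In liver 18 were tested with 0 called at D1 (0%), D2 (0%) and D3 (0%), and in lung 21 with 0 called at D1 (0%), D2 (0%) and D3 (0.127%). The smallest adjusted p by limma was 0.25, for a keratin in lung at D3, and 0.49 and 1.00 at D3 in forestomach and liver.

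Without adjustment, p was at most 0.05 for some keratins. Forestomach had 0 keratins at D1 (4.17% of all probes), 1 at D2 (7.53%) and 1 at D3 (9.23%), that is 2.94% of the keratins at each of the latter doses. Liver had 0 at D1 (3.6%), 2 at D2 (3.78%), Krt8 and Krt13, and 0 at D3 (4.77%). Lung had 0 at D1 (5.88%), 0 at D2 (6.12%) and 6 of 21 at D3 (16.2% of all probes). Krt13, 1 of these 6, was above background in 0 of 5 lungs at D0 and 3 of 5 at D3, so it entered the test through D3, and nothing is read from the share.

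In forestomach the keratin with the smallest p at D3 was Krt31. It was 0.50, 1.52, -0.01, 0.39 and 0.65 in D0 and 1.60, 1.93, 1.03, 1.46 and 0.21 in D3, and these groups overlapped. The log2 difference was 0.64 ± 0.28 (SE; limma, adjusted p = 0.49). Krt84, a hair keratin, differed by 1.22 ± 0.62 (adjusted p = 0.58) and Krt42 by -0.64 ± 0.43 (adjusted p = 0.73), and at D2 Krt72 had a value of -1.11 ± 0.49 (adjusted p = 0.62).

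The simple keratins of forestomach had D3 differences of -1.71 ± 1.17 for Krt8, -1.68 ± 1.24 for Krt18, -1.44 ± 1.32 for Krt19 and -1.79 ± 1.24 for Krt20, with adjusted p-values of 0.73 to 0.82 in limma. The 6 simple keratins had a median of -1.11 at D1, 1.71 at D2 and -1.56 at D3. The glandular stomach markers had a median difference of -1.15 at D1, 1.68 at D2 and -1.44 at D3, and their mean level was 3.94 ± 2.96 (SD, n = 5) in D0, 2.75 ± 2.88 in D1, 5.83 ± 0.74 (n = 4) in D2 and 2.48 ± 2.56 in D3. The part of these markers in the keratin differences was not tested. The basal keratins moved little at D3, by 0.22 to 0.29, and the mucosal ones by 0.15 to 0.66.

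In liver the keratin differences were small. Krt8 was -0.31, -0.44, -0.39, -0.27 and -0.64 in D0 and -0.29, -0.12, -0.14, -0.35 and -0.14 in D3, with overlap, and a log2 difference of 0.20 ± 0.10 (limma, adjusted p = 1.00). Krt18 differed by 0.11 ± 0.10, and Krt13 and Krt15 by 0.16 ± 0.09 and -0.16 ± 0.08. Krt23, a keratin that rises in some injured livers, differed by 0.38 ± 0.26 (adjusted p = 1.00).

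**Figure D4:**
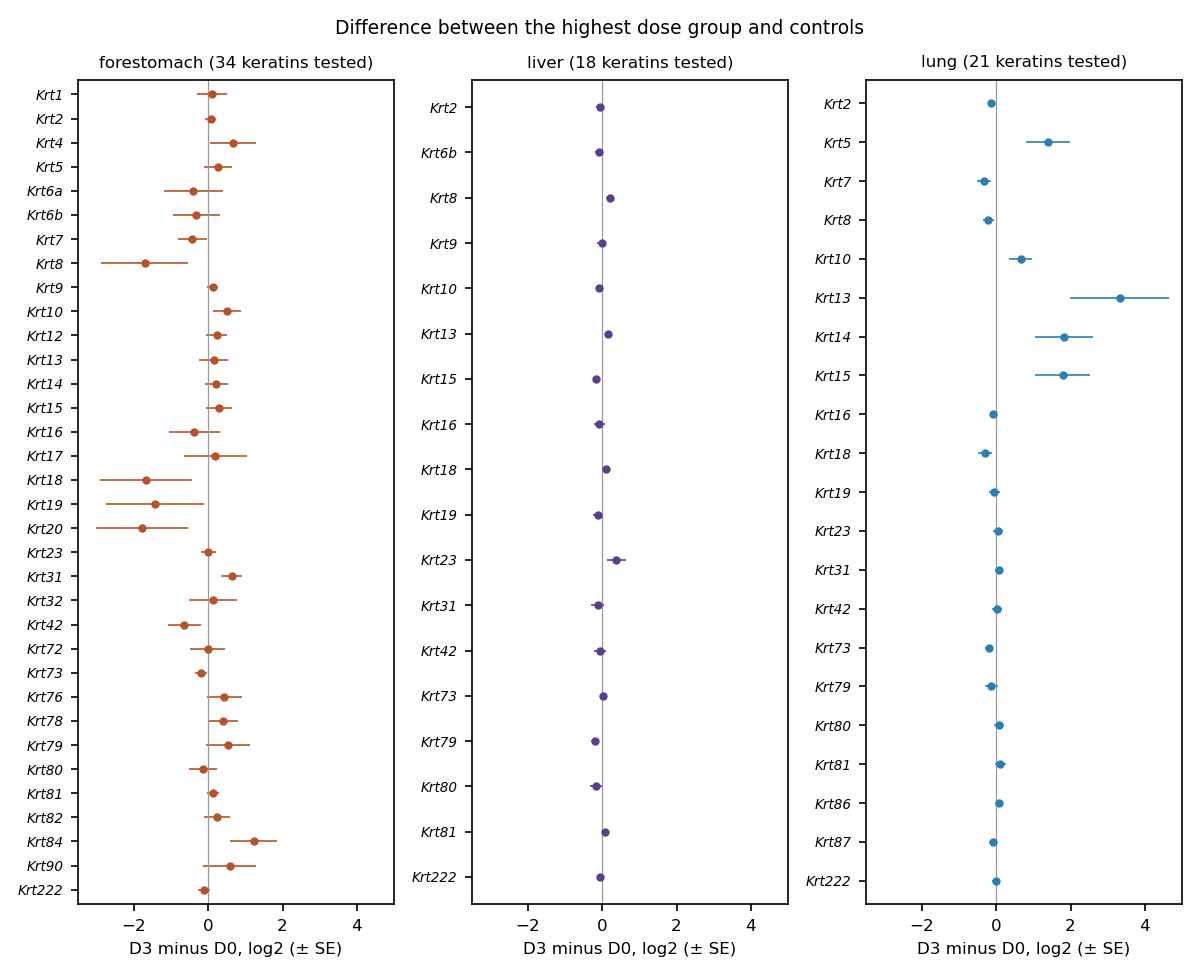
Log2 difference of the D3 group from D0 (horizontal axis, bars ± SE from limma) for each keratin past the filter in forestomach (34), liver (18) and lung (21). No difference was called, and Krt13 in lung stands furthest from 0, at 3.32 ± 1.33.

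In lung the D3 group held a pair of mice, 17 and 19, whose stratified keratins stood far above those of all other mice. Krt13 was 5.67 in mouse 17 and 6.01 in mouse 19, against -2.41 to -2.06 in the other 16 lungs. Krt4 was 6.84 and 7.80 against -0.34 to 0.18, and Krt78 was 4.58 and 4.87 against -0.34 to 0.18. Krt5 was 3.38 and 3.76 against -0.17 to 0.79, Krt14 was 2.96 and 3.47 against -1.69 to -1.23, and Krt15 was 3.59 and 3.71 against -1.27 to -0.14. The other D3 lungs (mice 16, 18 and 20) lay within the range of D0 to D2 for Krt4, Krt14 and Krt78. Mouse 16 stood slightly above that range for Krt5 (0.79 against at most 0.68), Krt13 (-2.06 against -2.11) and Krt15 (-0.14 against -0.39), and mouse 18 slightly below it for Krt5 (-0.17).

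Of the 37 keratins above background on any lung array, 14 were higher in both mice than in all 16 others (7.41% of all 36123 probes were), and 3 were lower in both (8.11%, against 11.6% of all probes). Of these 14, 9 were above background on only 1 or 2 lung arrays and so entered through those arrays alone, and nothing is read from the share they make up. The 14 included all 3 basal, all 3 mucosal and 3 of 4 epidermal keratins, with Krt6a, Krt6b, Krt17, Krt32 and Krt35. The 3 lower ones were Krt7 (3.11 and 3.35 against 3.73 to 4.49), Krt16 and Krt73. Krt18 was -0.44 in mouse 17 and -1.40 in mouse 19. These mice were picked for their values, so the counts are a description with no test.

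Markers of other tissues moved with these keratins. The 12 skeletal muscle markers averaged 5.76 in mouse 17 and 5.57 in mouse 19 against -0.92 to 0.04 in the others, and the 12 stratified epithelium markers 2.86 and 3.35 against -0.36 to -0.08. In both mice, 12 of 12 muscle genes and 11 of 12 stratified epithelium genes were well above background. Alveolar type 2 markers were between 5.40 and 5.87 in all 18 lungs, and the pair lay on different slides. The part of such tissue in the lung keratin values was not tested.

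**Figure D5:**
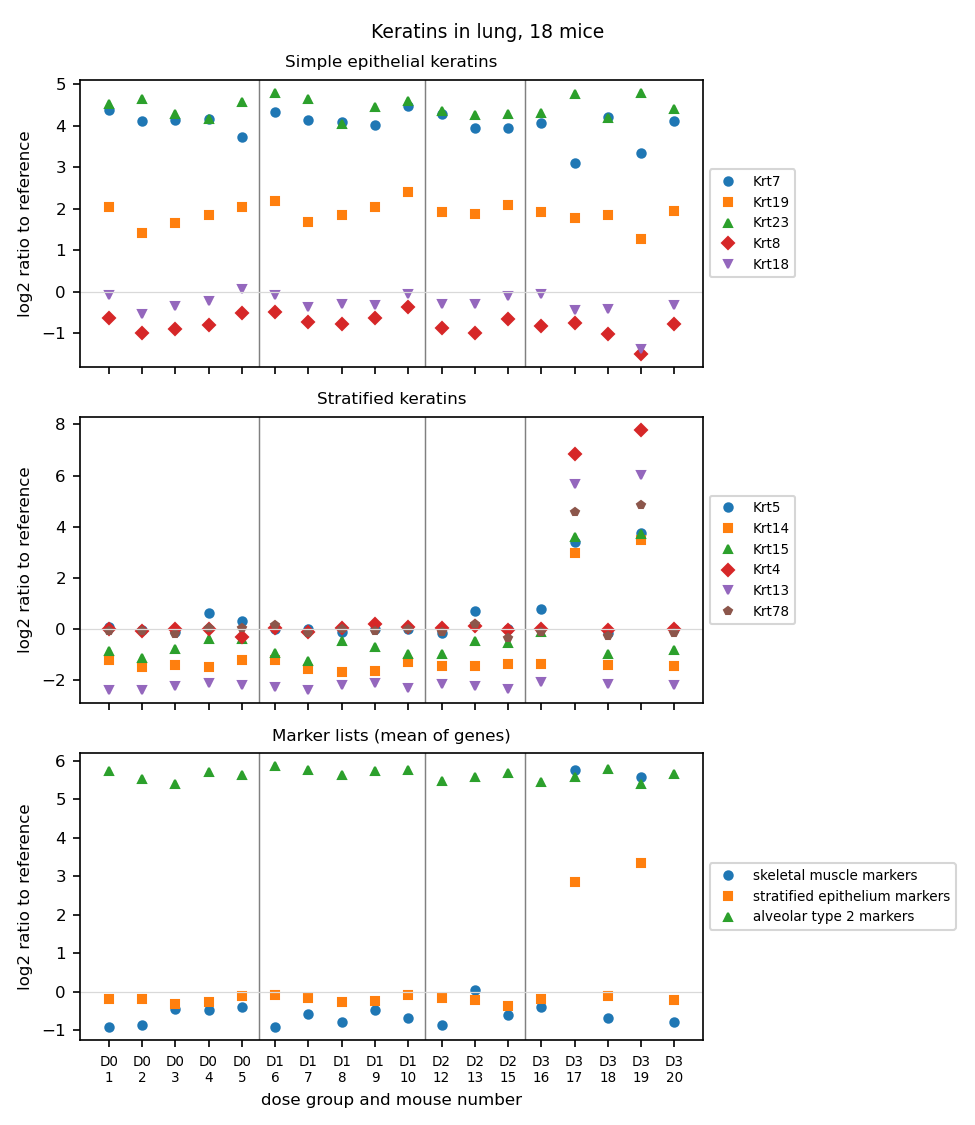
Log2 ratio to reference RNA (vertical axis) in the lung of 18 mice, by dose group and mouse number, for simple epithelial keratins, stratified keratins and the mean of 3 marker lists, with 1 symbol per mouse and gene. In D3 mice 17 and 19 the stratified keratins (Krt4 at 6.84 and 7.80) and the skeletal muscle markers (5.76 and 5.57) stand above all other mice, and the alveolar type 2 markers do not.

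The lung differences of the stratified keratins at D3 rested on these mice. With all 5 D3 lungs, the log2 differences were 3.32 ± 1.33 for Krt13 (limma, adjusted p = 0.25), 1.82 ± 0.78 for Krt14, 1.80 ± 0.74 for Krt15, 1.39 ± 0.59 for Krt5 and 0.66 ± 0.31 for Krt10. Without mice 17 and 19 they were -0.04 ± 0.11 for Krt14, 0.07 ± 0.22 for Krt15, 0.04 ± 0.21 for Krt5 and -0.05 ± 0.07 for Krt10, and Krt13 no longer passed the filter. Krt7 went from -0.34 ± 0.19 to 0.02 ± 0.13, and Krt73 was the remaining keratin at an unadjusted p of at most 0.05 with all mice, at -0.20 ± 0.09. A test of whether the D3 difference itself varied between tissues called 0 keratins for each pair of tissues (limma, smallest adjusted p = 0.20 for forestomach against lung, 0.34 for forestomach against liver and 0.76 for lung against liver), where 230, 23 and 0 of all probes were. At an unadjusted p of at most 0.05 were 11.1%, 5.88% and 17.4% of the keratins, beside 12.9%, 9.89% and 5.26% of all probes. Of the 21 anchoring and regulator genes, 0 were called at D3 in any tissue, with 4 of 21 higher in forestomach (19.0%, against 5.45% of all probes) and 8 of 18 in lung (44.4%, against 6.05%) at an unadjusted p of at most 0.05. Without mice 17 and 19 the lung count was 1 of 17 (5.88%, against 4.98%).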

How the data were processed

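RNA of each tissue was labelled with Cy5 and universal mouse reference RNA with Cy3 on 56 two-colour Agilent arrays. The authors extracted median signal intensity values with Feature Extraction 10.7.3.1, normalised them by LOWESS without background subtraction, and deposited log2 ratios (sample over reference). These were checked against the deposited scanner intensities (r of 0.98 to 1.00 per array), so scale and direction are known. The deposited spot flags (0 or 1) gave the detection calls. Probes were named through the accession in the scanner files, which matched 26413 of 55681 probes (47.4%) to 20018 genes.

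Samples were grouped by the tissue and dose in the labels. Within each tissue, each dose was compared with D0, and D0 tissues with each other, using limma 3.58.1 (R 4.3.3) on probes well above background on at least 3 arrays, with Benjamini-Hochberg adjustment over all probes tested. The study's methods name MAANOVA, and limma was used here in its place. A call needed an adjusted p of at most 0.05 and a change of at least 1.5-fold. The fit was tested on simulated data. Counts of arrays limit the precision, and p-values measure the spread between these mice. The members, the gene lists and the tests were chosen with earlier results of these data known.

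Keratins named were, in each tissue comparison, the 5 largest and 5 smallest differences among those called. At D3 they were the 3 with the smallest p in each tissue, and the partner pairs throughout. Others are named by class or after their values were seen. Mouse numbers are shared between tissues because the same mice gave them (D2 mouse 11 had no lung array here), so mouse was used as a block in an alternative fit. Deviations of the same mouse correlated between -0.18 and 0.28. Alternatives were loess on the median signals, normexp (offset 50) with loess, median centring, the filter, any probe, slide or mouse as a block, array weights, all arrays in the fit, and each replicate left out. The Cy5 channel alone was added after seeing the data.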

Additional observations from a re-analysis of the deposited data

Results flagged for a closer look

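In 15 of 196 groups of keratin values by tissue and dose (7.65%), the highest or lowest mouse lay far from the others by Dixon's criterion, which chance meets in about 1 in 20 groups. In forestomach, mouse 12 of D2 was highest for Krt1 (8.40) and Krt19 (4.81), mouse 15 of D2 for Krt73 (0.044), and mouse 6 of D1 for Krt10 (8.64) and Krt23 (6.97). Mouse 12 was the only D2 forestomach on slide 1, whose arrays all lay above those of the other slides in Krt1. In D3, mouse 19 was highest for Krt19 (4.11) and Krt42 (4.05) and mouse 20 for Krt84 (3.66). Mouse 19 was the D3 forestomach with high glandular stomach markers.

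In liver, mouse 17 of D3 was highest for Krt79 (-0.016), mouse 20 of D3 for Krt80 (2.59), mouse 5 of D0 lowest for Krt19 (-4.03) and mouse 15 of D2 lowest for Krt19 (-3.57). In lung, mouse 19 of D3 was lowest for Krt18 (-1.40) and Krt19 (1.26), and mouse 8 of D1 for Krt5 (-0.13). The Krt5 probe was well above background in 7 of 18 lungs but in 0 of 5 at D1, so that value lies among background values.

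The Cy3 channel, which holds the reference RNA and is not a measurement of the mice, was at least 3-fold above every D0 lung for 3 of 37 keratins and for 28 of 36123 probes in the lungs of D3 mice 17 and 19. The Krt5 signal was 2268 and 3117, against at most 65 in D0. The Krt15 signal was 640 and 928.5, against at most 121.5, and the Krt78 signal 307 and 396.5, against at most 64. The Cy5 signals of these probes were also raised in the same mice, to 30479 and 45053 for Krt5, and what raised the Cy3 signal was not tested.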

How the results depend on the processing

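The count of 0 keratins called at each dose in each tissue held under every alternative run. Tissue counts held within 1.5 times except under median centring, with 5 called for forestomach against liver and 7 for lung against liver; leaving out each mouse gave 18 to 22, 21 to 25 and 12 to 14. With the mouse as a replicate block (pairing by mouse), 21, 23 and 12 keratins were called, the same keratins as without it. Median centring reversed Krt23 (-1.07) and Krt42 (-0.52) in forestomach against lung, and Krt10 (0.35) and Krt73 (0.43) in lung against liver. It also moved the median of all probes at D3 to 0.18 in forestomach and 0.11 in lung, and in lung to 0.22 at D1 and 0.12 at D2. Differences at D3 that were not called also changed sign: in forestomach Krt1 (-0.023) and Krt13 (-0.13) with Cy5 alone and Krt1 with array weights (-0.069); in liver Krt15 with Cy5 alone (0.048) and Krt16 with slide as a block (0.015); in lung Krt8 (0.011), Krt16 (0.061) and Krt19 (0.17) with median centring, and Krt16 (0.0017) and Krt19 (0.062) with array weights. Without lung mice 17 and 19, Krt7 (0.018), Krt10 (-0.048), Krt14 (-0.037), Krt16 (0.029) and Krt19 (0.10) did. Leaving out 1 mouse at a time gave ranges across 0 at D3 for Krt1 (-0.11 to 0.28), Krt6a (-0.98 to 0.24), Krt13 (-0.045 to 0.35) and Krt16 (-0.75 to 0.17) in forestomach and Krt19 (-0.14 to 0.070) in lung. Among correlations, Krt8 with Krt18 fell to 0.68 in the low forestomachs without the 2 farthest mice and to 0.57 in lung with Cy5 alone, neither past the limit, and Krt7 with Krt19 in the high forestomachs turned to -0.38. The causes were not tested. Forestomach arrays had the fewest spots above background (down to 18.9%).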
